A study of Homo sapiens with 6 samples.

Results

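Caspase-activated DNase (CAD) is the protein product of DFFB, and the genes described here are DFFB, the gene of its inhibitor (DFFA) and 7 genes of other proteins linked to DNA breakdown in dying or irradiated cells, ENDOG, AIFM1, CIDEB, DNASE2, DNASE1L1, TREX1 and SAMHD1. These 9 members were chosen by gene symbol among the 20020 genes of the deposited count table, and 7 of them had enough counts to be tested. An unrelated enzyme of pyrimidine synthesis has CAD as its gene symbol and is not a member. The libraries came from HCT116, a human colorectal carcinoma cell line, 24 h after a radiation dose of 8 Gy. One group, CAD-KO2+IR, carried the second of the study's human CAD guides in the lentiCRISPRv2 plasmid (genotype label: CAD knockout), and the other, sgVec+IR, carried the vector control. There were 3 libraries in each group, all of them from irradiated cells, so the comparison asks what differs between CAD-KO2 and sgVec cells after IR and holds no measure of IR itself. Whether the knockout line was 1 clone or a pool of cells, and whether the libraries of a group came from separate cultures, is not given in the sources used here. The p-values therefore measure the spread between these libraries, which may be technical.

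In healthy cells CAD is folded with and held inactive by ICAD, the product of DFFA. When an executioner caspase cuts ICAD, CAD is released, dimerises and cuts the chromatin between nucleosomes, which gives the DNA ladder of apoptotic cells. Other proteins, not all of them nucleases, act beside or after it. Endonuclease G and AIF (ENDOG and AIFM1) reside in mitochondria and can move to the nucleus in dying cells, DNase II (DNASE2) digests DNA in lysosomes, TREX1 degrades DNA in the cytosol, and SAMHD1 hydrolyses dNTPs and takes part in processing stalled replication forks.

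The target of the CAD-KO2 guide is shown because the whole comparison rests on it. In GRCh38, DFFB occupies 3857267 to 3885429 of chromosome 1, forward strand (GENCODE release 29). The guide and the exon that holds its target are given here 5′ to 3′, with the guide's match in the exon in capitals.
CAD-KO2 guide: gtgcctgtacgaggatggca
DFFB exon 2, chr1:3858718-3858844, forward strand: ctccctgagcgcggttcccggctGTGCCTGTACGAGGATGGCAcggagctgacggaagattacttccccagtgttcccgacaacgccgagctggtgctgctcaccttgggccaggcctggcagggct
The match runs from 3858741 to 3858760, is followed by the PAM CGG, and lies in the coding sequence of exon 2 of the 7 exons of DFFB-205. It was found in 10 of the 12 annotated DFFB transcripts. A Cas9 break 3 bases before the PAM would fall in codon 52 of 338, with 51 codons (15.1%) before it and 286 codons (84.6%) after it. This part of CAD belongs to the CIDE-N domain, which DFFA and CIDEB also carry. Counts per gene do not read the edit itself, and none of the insertions or deletions at this site were analysed here.

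The libraries held 14032994 to 19574144 counts on genes. They were not equally alike. Across genes, sgVec+IR replicate 3 had a Pearson correlation of log2 CPM (counts scaled to a common library size after TMM) of 0.890 and 0.886 with replicates 1 and 2 of its group, and CAD-KO2+IR replicate 2 had 0.969 and 0.9747 with replicates 1 and 3, where the remaining pair of each group had 0.993. The number of genes at 0 was 7561 in sgVec+IR replicate 3 and 4577 to 5232 elsewhere. Values without these 2 libraries are therefore given beside the results that rest on them. Of the markers of colon epithelium, EPCAM, KRT8, KRT18 and CDH1 were counted in every library (summed over the list of 6, 1457 to 2737 CPM in sgVec+IR and 2110 to 2831 CPM in CAD-KO2+IR), while CDX1 was at 0 throughout and VIL1 had 0 to 3 counts. Of 4 markers of blood cells, 1 exceeded 3 counts, with a summed level of at most 0.890 CPM. Of 4 fibroblast markers, 2 exceeded 3 counts (COL1A1 and PDGFRB), DCN was at 0, and the summed level was 10.9 to 48.9 CPM in sgVec+IR and 25.9 to 39.8 CPM in CAD-KO2+IR. In bulk libraries such as these, fewer cells that express a gene and less RNA per cell cannot be told apart.

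Each CAD-KO2+IR library held less DFFB mRNA than any sgVec+IR library, at about 0.494 times the level. Its counts (ENSG00000169598.17) in sgVec+IR replicates 1 to 3 were 357, 335 and 297, while CAD-KO2+IR replicates 1 to 3 had 185, 192 and 217. In CPM this is 21.8, 22.9 and 20.9 in sgVec+IR and 10.03, 10.12 and 12.36 in CAD-KO2+IR, so the groups did not overlap and transcript was still counted in each knockout library. The means were 21.9 ± 0.995 CPM and 10.8 ± 1.32 CPM (SD, n = 3 each). The log2 fold change (CAD-KO2+IR over sgVec+IR) was −1.02, with a standard error of 0.193 and a 95% interval from −1.47 to −0.56. The quasi-likelihood test of edgeR gave an adjusted p of 0.550 (Benjamini-Hochberg, 12925 genes), so DFFB was not called in edgeR. A call here means a change of 1.5-fold or more, up or down, with adjusted p below 0.05. The study used these thresholds with DESeq2. A separate DESeq2 fit was made here, and the DESeq2 values for DFFB given below come from that fit, not from the study. At these thresholds the fit made here called fewer genes than the paper reports, and the reason was not tested. In the edgeR test 4 genes, 0.0309% of those tested, passed, and DFFB was number 26 by p. By size, 183 genes, DFFB included, had a log2 fold change as low as that of DFFB or lower.

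The call for DFFB turned on the tool and on the libraries, while its fold change hardly moved. With the unadjusted p in its place, 2.18% of genes passed in edgeR, of the members DFFB alone. DESeq2 called DFFB (log2 fold change −1.01, adjusted p = 0.00187) together with 0.245% of the 16728 genes for which it gave an adjusted p. At an unadjusted p under 0.05 DESeq2 passed 2.13% of genes. Limma-voom with sample weights, with weights of 0.0404 for sgVec+IR replicate 3 and 0.154 for CAD-KO2+IR replicate 2, called DFFB at −0.92 (adjusted p = 0.000135), along with 5.15% of genes. Without sgVec+IR replicate 3 alone, edgeR gave −1.05 with an adjusted p of 0.108, where 0.167% of genes were called, and DESeq2 gave −1.03 with an adjusted p of 0.00350, where 0.864% were called. Both libraries that stand apart were also left out, an alternative chosen after seeing the data. For DFFB edgeR then gave −0.996 (adjusted p = 1.64e-07, with 3.37% of genes called) and DESeq2 gave −0.99 (adjusted p = 1.15e-05, with 1.94% called). These fits keep only the most alike pair of libraries in each group, so their p-values rest on a spread made small by that choice. The same limit holds for every p-value below that leaves out both libraries. Over 23 fits in all, the log2 fold change of DFFB stayed between −1.11 and −0.92, its adjusted p ran from 1.64e-07 to 1.0, and 5 fits passed both thresholds.

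Among the 7 tested members, DFFB alone had groups that did not overlap. Over all genes tested 10.2% had no overlap, 676 of them higher and 648 lower in CAD-KO2+IR, so a count of 1 in 7 is close to that background. The spread of DFFB was small. Its coefficient of variation among the sgVec+IR libraries was 4.54%, under the 5.51% that counting error alone gives at this depth, and in CAD-KO2+IR the values were 12.2% against 7.11%.

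**Figure D1:**
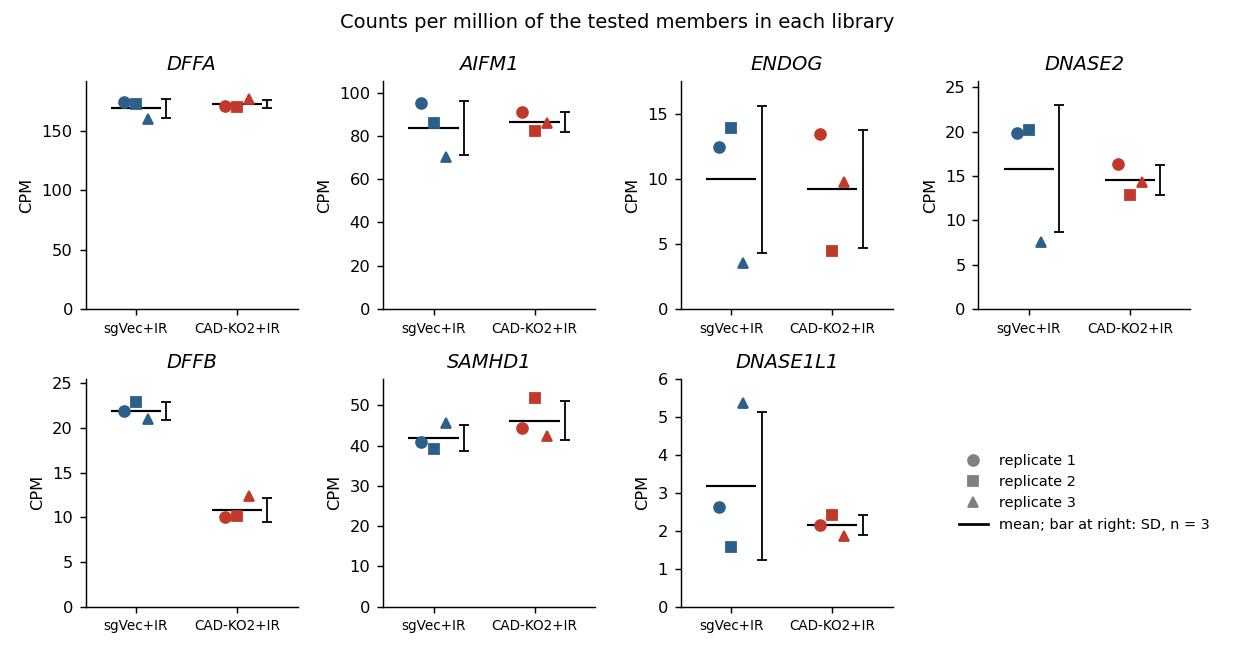
CPM (linear axis from 0) of the 7 tested members in each library, one panel per gene, ordered by level per kilobase, with sgVec+IR in blue and CAD-KO2+IR in red, the replicate shown by the symbol, the group mean by a line and the SD (n = 3) by the bar at its right. The 3 DFFB values of CAD-KO2+IR (10.03 to 12.36) lie below the 3 of sgVec+IR (20.9 to 22.9), and in the other panels the groups overlap.

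DFFA, whose product ICAD is both the chaperone and the inhibitor of CAD, was nearly level across the 6 libraries. It was counted at 174, 173 and 160 CPM in sgVec+IR replicates 1 to 3 and at 171, 170 and 177 CPM in CAD-KO2+IR replicates 1 to 3. The groups overlapped, and the lowest value was that of sgVec+IR replicate 3. The means were 169 ± 7.98 and 173 ± 3.48 CPM (SD, n = 3 each). The log2 fold change was 0.03 with a 95% interval from −0.29 to 0.35 (adjusted p = 1.0, edgeR). Over the fits its log2 fold change ran from −0.00359 to 0.06. A change in DFFA as large as that measured for DFFB lies outside this interval.

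Since ICAD and CAD form a complex, their messages were also set against each other within each library, which needs no scaling between libraries. For every 100 DFFA counts there were 12.6, 13.3 and 13.1 DFFB counts in sgVec+IR replicates 1 to 3, and 5.85, 5.94 and 6.99 in CAD-KO2+IR replicates 1 to 3. The values of the 2 groups were far apart, and sgVec+IR replicate 3 fell between the other libraries of its group. The means were 12.98 ± 0.378 and 6.26 ± 0.632 (SD, n = 3 each), a difference of −1.06 on the log2 scale, against a pooled SD of 0.105 among the libraries of a group. A two-sided exact permutation test gave p = 0.1, the smallest that 3 libraries against 3 allow. With each library left out in turn the difference lay between −1.14 and −1.01. DFFB took part in the ratio with 185 to 357 counts and DFFA with 2263 to 3230, so the precision of the ratio is set by DFFB.

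**Figure D2:**
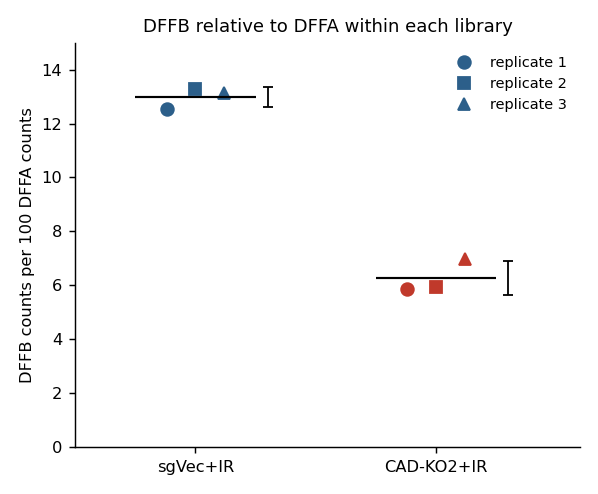
DFFB counts per 100 DFFA counts in each library (linear axis from 0), with the group mean as a line and the SD (n = 3) as a bar. The sgVec+IR libraries sit at 12.6 to 13.3 and the CAD-KO2+IR libraries at 5.85 to 6.99.

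AIFM1 encodes AIF, a flavoprotein of the mitochondrial intermembrane space. It stood at 95.04, 85.8 and 70.2 CPM in sgVec+IR replicates 1 to 3 and at 91.0, 82.0 and 86.0 CPM in CAD-KO2+IR replicates 1 to 3. The CAD-KO2+IR values lay inside the range of the controls. Its log2 fold change was 0.04 (95% interval −0.37 to 0.45, adjusted p = 1.0, edgeR), and it was −0.07 without sgVec+IR replicate 3.

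ENDOG encodes endonuclease G, the nuclease that mitochondria release. Its level was 12.5, 13.96 and 3.53 CPM in sgVec+IR replicates 1 to 3 and 13.5, 4.48 and 9.79 CPM in CAD-KO2+IR replicates 1 to 3. The lowest value in each group was that of the library that stands apart. With a coefficient of variation of 56.5% in sgVec+IR and 48.9% in CAD-KO2+IR, against about 8.09% and 7.70% from counting, ENDOG was bounded only loosely, with a log2 fold change of −0.12 and a 95% interval from −1.44 to 1.198 (adjusted p = 1.0, edgeR). Leaving out sgVec+IR replicate 3 gave −0.51, and leaving out CAD-KO2+IR replicate 2 gave 0.22. With both of these libraries left out it was −0.17 (standard error 0.154), and with the correction for GC content −0.08 (standard error 0.207), neither of them a call.

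Of the lysosomal and DNase I-like enzymes, DNASE2 was measured more closely than DNASE1L1. DNASE2 stood at 19.8, 20.2 and 7.55 CPM in sgVec+IR replicates 1 to 3 and at 16.3, 12.9 and 14.3 CPM in CAD-KO2+IR replicates 1 to 3. The groups overlapped only through sgVec+IR replicate 3, since the other control libraries lay above all those of CAD-KO2+IR. The log2 fold change was −0.13 (95% interval −1.01 to 0.74, adjusted p = 1.0, edgeR) with all libraries and −0.46 (adjusted p = 0.407, edgeR) without that one. With sample weights it was −0.43 (adjusted p = 0.0108, limma), and with both libraries left out −0.38 (adjusted p = 0.0336 in edgeR and 0.198 in DESeq2), in each case with a fold change under 1.5 and so no call. Other fits gave smaller differences, −0.08 (adjusted p = 0.909, edgeR) with the correction for GC content and −0.01 with unweighted limma-voom.

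DNASE1L1, a DNase I relative that is anchored to membranes, was the scarcest member with counts. It had 43, 23 and 76 counts in sgVec+IR replicates 1 to 3 and 40, 46 and 33 in CAD-KO2+IR replicates 1 to 3, or 2.63, 1.57 and 5.36 CPM against 2.17, 2.43 and 1.88 CPM. The range of the CAD-KO2+IR libraries lay inside that of the controls, whose highest value was again sgVec+IR replicate 3. The log2 fold change of −0.55 (95% interval −1.69 to 0.60, adjusted p = 1.0, edgeR) became 0.03 without that library, and it was −0.07 with CAD-KO2+IR replicate 2 left out as well and −0.10 with sample weights.

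SAMHD1 was the member with the highest fold change, a small one within the spread of the libraries. Its level was 40.9, 39.2 and 45.6 CPM in sgVec+IR replicates 1 to 3 and 44.4, 51.7 and 42.5 CPM in CAD-KO2+IR replicates 1 to 3. The groups overlapped, with the highest value in CAD-KO2+IR replicate 2. The log2 fold change was 0.14 (95% interval −0.27 to 0.55, adjusted p = 1.0, edgeR) and stayed positive, from 0.05 to 0.23, in all 23 fits. Seen together, DFFA, AIFM1 and SAMHD1 had intervals that end short of −0.56, the upper end of the interval of DFFB, whereas those of ENDOG, DNASE2 and DNASE1L1 reach past it.

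**Figure D3:**
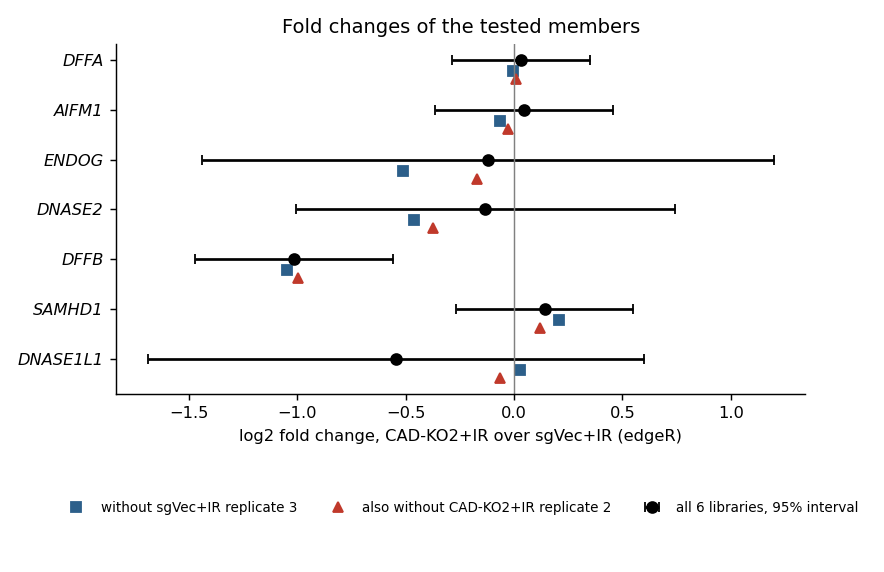
Log2 fold changes (CAD-KO2+IR over sgVec+IR, edgeR) of the 7 tested members, with all 6 libraries (black, bars are 95% intervals), without sgVec+IR replicate 3 (blue squares) and also without CAD-KO2+IR replicate 2 (red triangles). DFFB stays between −1.05 and −0.996, while without sgVec+IR replicate 3 ENDOG moves from −0.12 to −0.51, DNASE2 from −0.13 to −0.46 and DNASE1L1 from −0.55 to 0.03.

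Both libraries that stand apart deviated with the GC content of transcripts. Across 12913 genes, the deviation of sgVec+IR replicate 3 from the other libraries of its group had a Pearson correlation of −0.614 with GC content, and that of CAD-KO2+IR replicate 2 from its group had one of −0.761. Split into 5 equal classes by GC content, the median deviation of sgVec+IR replicate 3 went from 0.78 (log2) in the class with the least GC to −1.35 in that with the most, and for CAD-KO2+IR replicate 2 from 0.44 to −0.71. These are correlations across genes of the same libraries, which share depth and are not independent. With a correction for GC content (a lowess trend, chosen after seeing the data) the standard error of ENDOG went from 0.557 to 0.207 and that of DNASE2 from 0.369 to 0.206, while that of DNASE1L1 went from 0.483 to 0.658. The corrected log2 fold change of DFFB was −1.04 (adjusted p = 0.0672, edgeR), and no member was called.

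ENDOG had the highest GC content of the tested members, 67.7%, and deviated by −1.87 in sgVec+IR replicate 3 and by −1.34 in CAD-KO2+IR replicate 2. DFFB, with 52.3% GC, deviated by −0.09 and −0.14, and DFFA, with 48.1%, by −0.12 and −0.03. The fold change of DFFB was thus about as large without these libraries as with them. DNASE1L1 went against the trend, with 56.8% GC and deviations of 1.34 and 0.25 where the median of its GC class was −0.73 and −0.35. DNASE2, at 55.6% GC, deviated by −1.39 in sgVec+IR replicate 3 but only by −0.24 in CAD-KO2+IR replicate 2.

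**Figure D4:**
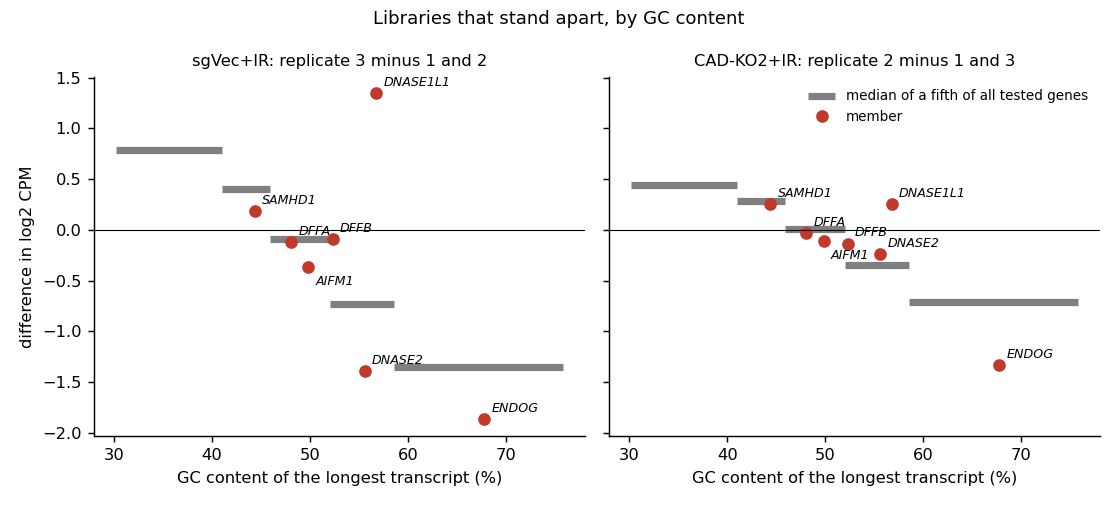
Difference in log2 CPM between a library that stands apart and the mean of the other libraries of its group, against the GC content of each gene's longest transcript (%), for sgVec+IR replicate 3 (left) and CAD-KO2+IR replicate 2 (right). Grey bars are medians over 5 equal classes of all tested genes, which decline from 0.78 to −1.35 and from 0.44 to −0.71, and red points are the 7 tested members, of which DFFB and DFFA lie within 0.14 of zero in both panels.

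CIDEB and TREX1 had no count in any of the 6 libraries. CIDEB encodes a CIDE-N protein of lipid droplets that is a relative of CAD and ICAD, and TREX1 encodes the main exonuclease for cytosolic DNA. A count of 0 allows up to 3 counts over a group, or 0.0665 CPM in sgVec+IR and 0.0546 CPM in CAD-KO2+IR, and this limit covers counting error only. Both genes share all of their exon bases with exons of other genes in the table. TREX1 (chromosome 3, 48465811 to 48467645, forward strand) lies wholly within exons of ATRIP on the same strand, which had 380 to 634 counts. CIDEB (chromosome 14, 24305096 to 24311430, reverse strand) shares 61.1% of its exon bases with NOP9 and 39.9% with LTB4R2, both on the opposite strand, which had 635 to 1016 and 77 to 189 counts. Under the default of featureCounts, a read that overlaps exons of more than 1 gene is given to none of them, and the setting used, including strand, is not given in the sources used here.

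The same pattern held across the table. Of 255 genes with all exon bases shared, 239 (93.7%) had no count in any library, against 222 of 618 (35.9%) with 50% to under 100% shared, 223 of 4505 (4.95%) with less than 50% shared and 2455 of 14445 (17.0%) with none shared. For the 14 genes covered on the opposite strand alone, as CIDEB is, the number was 11, and for the 235 covered on the same strand, as TREX1 is, it was 223. These values therefore do not show whether CIDEB or TREX1 was transcribed. ATRIP had a log2 fold change of 0.06 (95% interval −0.39 to 0.50, adjusted p = 1.0, edgeR), with groups that overlapped.

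**Figure D5:**
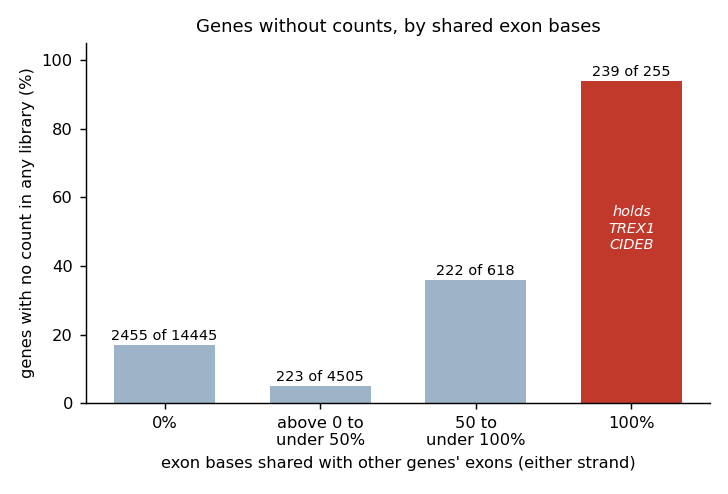
Percentage of genes with no count in any of the 6 libraries (bars, linear axis from 0) by the share of a gene's exon bases that exons of other genes in the table also cover on either strand, in GENCODE release 29. The share is 93.7% for genes covered entirely, the class that holds TREX1 and CIDEB (red), and 4.95% for those with under 50% covered.

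Shared exon bases also touched 4 members that had counts. DNASE1L1 shares 43.4% of its exon bases, most of them (39.9%) with RPL10, a ribosomal protein gene on the opposite strand that had 10175 to 14732 counts, and the rest with TAZ. ENDOG shares 39.2% with SPOUT1 on the opposite strand, which had 0 to 2 counts. SAMHD1 shares 10.3% with TLDC2 and DFFA 3.08% with PEX14, while DFFB, AIFM1 and DNASE2 share none with a gene in the table. DFFA shares a further 7.05% and DNASE2 7.58% with antisense genes that are not in the table. Whether reads on shared bases were dropped or counted for one of the genes is not given in the sources used here. Of the tested members, DNASE1L1 shares the largest part of its exon bases and had the fewest counts, so its counts are the least certain. PEX14, the neighbour of DFFA, had 56 counts in sgVec+IR replicate 3 and 442 to 675 in the other libraries, a swing that DFFA did not show.

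Levels of different genes were compared as CPM per kilobase of exon. DFFA and AIFM1 were the most abundant, with medians over the 6 libraries of 26.0 CPM per kb each (24.1 to 26.7 and 21.2 to 28.7), and their ranges overlapped. ENDOG followed with 9.501 (3.01 to 11.9), DNASE2 with 6.42 (3.16 to 8.45), DFFB with 4.30 (2.59 to 5.93), SAMHD1 with 3.86 (3.48 to 4.59) and DNASE1L1 with 0.556 (0.381 to 1.30). Of neighbours in this order, AIFM1 and ENDOG, and SAMHD1 and DNASE1L1, had ranges that did not overlap, and the others did. In sgVec+IR the message of the inhibitor stood at 25.5 ± 1.205 CPM per kb and that of the nuclease at 5.66 ± 0.257 (SD, n = 3 each). In CAD-KO2+IR DFFB stood at 2.80 ± 0.341 CPM per kb, below SAMHD1 at 4.10 ± 0.433, whereas in sgVec+IR it was above SAMHD1 at 3.72 ± 0.291. The order depends on the length used. Per kilobase of coding sequence SAMHD1 (median 23.1 CPM per kb) and DFFB (15.3) came next after DFFA and AIFM1, ahead of DNASE2 with 14.2 and ENDOG with 12.5. Per kilobase of exon bases shared with no other gene of the table the order stayed as it was, with ENDOG at 15.6 and DNASE1L1 at 0.982 CPM per kb.

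Across the 6 libraries the correlation of DFFB with other members was largest in size for SAMHD1. The Pearson correlation of its log2 CPM was −0.25 with DFFA, 0.09 with ENDOG, −0.16 with AIFM1 and −0.65 with SAMHD1. Higher values were found between AIFM1 and DNASE2 (0.916) and between ENDOG and DNASE2 (0.901), which share a low value in sgVec+IR replicate 3. All of these are descriptions over 6 points that share their libraries. The genes most like DFFB were TLCD2 (0.994), TRARG1 (0.992), COL4A5 (0.991), SH2D3C (0.989) and CYFIP2 (0.985), and 29 genes (0.224% of those tested) reached at least 0.95. The genes most like DFFA were CCDC183, SPRN and NID2 (0.993 each), but 3.03% of genes tested reached at least 0.95.

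The genes around DFFB on chromosome 1 were examined because the guide cuts there. Of 10 genes in the table within 500 kb, 8 were tested, with log2 fold changes from −0.40 to 0.22 and a median of −0.14, against −0.01 over all genes tested. The median was −0.24 without sgVec+IR replicate 3, −0.08 without CAD-KO2+IR replicate 2, −0.07 without sgVec+IR replicate 1 and −0.21 with both libraries that stand apart left out. With all libraries, none of the neighbours reached the value of DFFB. C1orf174 had 31.3 ± 4.07 CPM in sgVec+IR and 36.6 ± 1.80 CPM in CAD-KO2+IR (SD, n = 3 each), a log2 fold change of 0.22 (adjusted p = 1.0, edgeR), and was 1 of 2 neighbours whose groups did not overlap. The lowest value, −0.40, was that of ARHGEF16, with groups that overlapped.

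Genes of proteins that act with the members were taken from 7 lists with 46 genes in all, of which 36 were tested. None was called in edgeR in either direction, where 0.0309% of all genes were, and 1 (DNASE1L2) had an unadjusted p under 0.05. By sign, 19 were higher in CAD-KO2+IR and 17 lower, and their median log2 fold change was 0.01 against −0.01 over all genes tested. Groups did not overlap for 3 higher and 2 lower genes, where 10.2% of all genes had no overlap.

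The activators and partners of CAD formed the longest list, with 13 of 15 genes tested, 7 of them higher and 6 lower and none called. HSPA8 and DNAJB1 encode chaperones of the Hsc70 and Hsp40 kinds, which help CAD and ICAD to fold. HSPA8 had 2263 ± 182 CPM in sgVec+IR and 2674 ± 236 CPM in CAD-KO2+IR (SD, n = 3 each), and its log2 fold change was 0.24 (adjusted p = 1.0, edgeR). It was 0.30 (adjusted p = 0.399, edgeR) without sgVec+IR replicate 3 and 0.23 (adjusted p = 0.431, edgeR) with the correction for GC content. With both libraries that stand apart left out it was 0.23 (adjusted p = 0.000279, edgeR), too small a fold change for a call. DNAJB1 had 185 ± 24.5 and 216 ± 1.91 CPM (SD, n = 3 each), with 0.22 (adjusted p = 1.0, edgeR). For both, every CAD-KO2+IR library lay above every sgVec+IR library. DNAJB1 is named here after its values were seen. H1-2, a linker histone, had 2.95 ± 1.14 and 4.56 ± 0.635 CPM (SD, n = 3 each), a log2 fold change of 0.63 with overlapping groups. It was 0.88 (adjusted p = 0.407, edgeR) without sgVec+IR replicate 3 and 0.56 (adjusted p = 0.711, edgeR) with the correction for GC content. With both libraries that stand apart left out it was 0.99 (adjusted p = 0.00864, edgeR).

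In the DNase I and II families 2 of 4 genes were tested. DNASE1L2 had 0.856, 1.10 and 2.26 CPM in sgVec+IR replicates 1 to 3 and 0.271, 0.158 and 0.456 CPM in CAD-KO2+IR replicates 1 to 3. Its groups did not overlap, with a log2 fold change of −2.21 (95% interval −3.72 to −0.71, adjusted p = 1.0, edgeR), at a level where the most counts in any library were 32 and with 50.1% of its exon bases shared with other annotated genes. The log2 fold change of DNASE1L2 was −1.71 (adjusted p = 0.399, edgeR) without sgVec+IR replicate 3. It was −1.40 (adjusted p = 0.116, edgeR) without both libraries that stand apart, and −2.29 (adjusted p = 0.501, edgeR) with the correction for GC content. DNASE1, the secreted digestive DNase, had 10.03 ± 1.87 and 12.7 ± 2.77 CPM (SD, n = 3 each), with 0.34. It was at 0.26 (adjusted p = 0.593, edgeR) without sgVec+IR replicate 3 and at 0.32 (adjusted p = 0.624, edgeR) with the correction for GC content. Without both libraries that stand apart it was at 0.44 (adjusted p = 0.0387, edgeR), too small a fold change for a call.

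The mitochondrial list had 5 of 6 genes tested. EXOG, a relative of endonuclease G, had 13.6 ± 2.84 CPM in sgVec+IR and 17.9 ± 1.28 CPM in CAD-KO2+IR (SD, n = 3 each), a log2 fold change of 0.39 with groups that overlapped through sgVec+IR replicate 3. It was 0.57 (adjusted p = 0.370, edgeR) without that library and 0.61 (adjusted p = 0.000975, edgeR) without both. With the correction for GC content the log2 fold change of EXOG was 0.39 (adjusted p = 0.502, edgeR). AIFM3, a relative of AIF, had 3.37 ± 0.321 and 2.27 ± 0.735 CPM (SD, n = 3 each), with −0.58 and no overlap. MIF, a nuclease partner of AIF, had at most 3 counts in any library, and 62.0% of its exon bases are shared with other annotated genes.

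All 5 genes of the SET complex, on which granzyme A acts, were tested, 1 of them higher and 4 lower, with a median log2 fold change of −0.02. HMGB2 (−0.13) and SET (−0.15) had the smallest p among them, and SET was at 0.15 without sgVec+IR replicate 3. Of the enzymes that clear DNA and RNA-DNA hybrids, 9 of 11 were tested, 6 of them higher and 3 lower, with ADAR (0.11) and ENDOD1 (0.14) the first by p. Both lists held no gene whose groups did not overlap.

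In the DNA sensing pathway 3 of 4 genes were tested. CGAS, the sensor, had 0 to 5 counts in 5 libraries and 35 in sgVec+IR replicate 3. STING1, the adaptor, had 22.2, 23.1 and 13.2 CPM in sgVec+IR replicates 1 to 3 and 16.9, 11.6 and 12.8 CPM in CAD-KO2+IR replicates 1 to 3. As for DNASE2, the groups overlapped only through sgVec+IR replicate 3, and the log2 fold change was −0.51 (95% interval −1.18 to 0.17, adjusted p = 1.0, edgeR). It was −0.72 (adjusted p = 0.340, edgeR) without that library, −0.60 (adjusted p = 0.000621, edgeR) without both, and −0.50 (adjusted p = 0.331, edgeR) with the correction for GC content. IRF3, a transcription factor downstream of STING, was at −0.09, and at −0.31 (adjusted p = 0.596, edgeR) without sgVec+IR replicate 3. IRF3 was at −0.03 (adjusted p = 0.866, edgeR) without both libraries and at −0.14 (adjusted p = 0.795, edgeR) with the correction for GC content.

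When the libraries that stand apart were weighted down or left out, some of these genes were called. Leaving out both keeps only the most alike pair of libraries in each group, which narrows the spread behind such calls. Limma-voom with sample weights called 4 of the 36 (H1-2, DNASE1L2, EXOG and STING1), where 5.15% of all genes were called. Leaving out both libraries called 3 in edgeR (H1-2, EXOG and STING1), where 3.37% of all genes were called, and 2 in DESeq2 (EXOG and STING1), where 1.94% were called. DESeq2 on all 6 libraries called none of the pathway genes and, of the members, DFFB. Among the cell markers, CDH1 (97.1 ± 2.90 CPM in sgVec+IR and 66.7 ± 2.95 in CAD-KO2+IR) and KRT18 (383 ± 94.8 and 476 ± 26.0, SD, n = 3 each) also had groups that did not overlap, in opposite directions, and their part in the values of the members was not tested.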

How the data were processed

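RNA-seq of irradiated HCT116 cells was analysed in 6 libraries. The labels give the genotype, and the dose, the time and the guide come from the paper. Reads were cleaned by the authors (fastp) and summarised with featureCounts, and the deposited values are raw counts for each gene. The submitters' processing notes name a mouse build although the gene identifiers are human, and the labels give the molecule as genomic DNA although the protocol starts from RNA. The build and aligner behind the counts are otherwise not given in the sources used here, so GENCODE release 29 positions (GRCh38) are linked by gene identity (19823 of 20020 identifiers matched).

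Genes were filtered with filterByExpr (minimum count 10, minimum total 15), scaled by TMM and tested with edgeR 4.0.16 (quasi-likelihood, legacy set to FALSE, no block) in R 4.3.3, with Benjamini-Hochberg adjustment over 12925 genes. DESeq2 1.42.0 (all genes) and limma 3.58.1 were alternatives. The study itself used DESeq2. Intervals are 95%. Depth was 14032994 to 19574144 counts per library. Exon length and GC content came from the annotation, GC from the longest transcript. Tests were tried on simulated data first.

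The members and lists were chosen with earlier results of these data known. Named genes were all members, from each list any gene called and the 2 with the smallest p, tested genes within 500 kb of DFFB, and those most correlated with DFFB (5) or DFFA (3). The correction for GC content, both libraries left out and the unshared exon length were chosen after seeing the data. Some genes that this rule or the marker lists cover are not reported here.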

Additional observations from a re-analysis of the deposited data

How the results depend on the processing

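Across 23 fits DFFB kept its direction, from −1.11 to −0.92. It passed the thresholds, so that 1 member was called, in DESeq2 (−1.01), limma-voom with sample weights (−0.92), DESeq2 without sgVec+IR replicate 3 (−1.03), and with both libraries that stand apart left out in edgeR (−0.996) and DESeq2 (−0.99). Taking the unadjusted p did the same in edgeR (−1.02) and DESeq2 (−1.01). Pathway genes called went from 0 to 4 with sample weights, 3 and 2 with both libraries left out in edgeR and DESeq2, and 1 with an unadjusted p in either tool. The cause of these changes was not tested. With each library left out in turn in edgeR, DFFB lay between −1.11 and −0.95, with no call.

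Signs turned for 5 members, none of them called. AIFM1 was −0.056 with sample weights, −0.047 in DESeq2 without sgVec+IR replicate 3, −0.027 with both libraries left out and −0.023 with these left out in DESeq2. DNASE1L1 was 0.054 in DESeq2 without sgVec+IR replicate 3. Leaving out single libraries in edgeR gave −0.065 to 0.15 for AIFM1, −0.00359 to 0.059 for DFFA, −0.85 to 0.027 for DNASE1L1, −0.46 to 0.079 for DNASE2 and −0.51 to 0.22 for ENDOG.

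The order of levels per kilobase changed at 4 places with coding length and at 2 without sgVec+IR replicate 3. The deviations of same-numbered libraries from their group means correlated at 0.468, −0.545 and −0.379. The 2 libraries that stand apart have different replicate numbers, and their deviations correlated at 0.552. These values therefore cannot show whether same-numbered libraries were paired. With the replicate block DFFB was at −1.02 (adjusted p = 1.0, edgeR) and no call was made. In DESeq2 the block ended the call of DFFB, at −1.02 with an adjusted p of 1. Depth limits DNASE1L1 most, at 23 to 76 counts.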
